A study of Mus musculus with 6 samples.

Results

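The genes described here carry fatty acids into cells and hold them there. The set comprised 9 genes, Lpl, Cd36, Slc27a1, Slc27a2, Slc27a4, Fabp1, Fabp2, Fabp4 and Fabp5, each found by its gene symbol on 1 of the 22203 probe sets that carried a symbol. They were compared between livers of HMGB2-KO and WT mice, 3 livers each, all from untreated male C57BL/6 mice aged 8 weeks. HMGB2 is a chromatin protein that bends DNA, and the study placed it in liver regeneration and in the storage of lipid droplets. The labels do not say which part of Hmgb2 was deleted or in which cells, and they mention no hepatectomy. They number the livers without stating that each came from a separate mouse, so a p-value reflects sample-to-sample spread that may include technical spread.

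Fatty acids reach liver cells mainly as free acids bound to albumin and as triglyceride in lipoproteins. Lipoprotein lipase releases acids from that triglyceride at the vessel wall, the membrane glycoprotein CD36 and the transport proteins of the SLC27 family aid their entry, and fatty acid binding proteins carry them through the cytosol. Adult hepatocytes rely above all on SLC27A2, SLC27A5 and FABP1, whereas Fabp4 and Lpl are best known from adipocytes, macrophages and endothelial surfaces. Many of these genes are targets of PPARalpha or PPARgamma, nuclear receptors that bind as pairs with RXR to a repeated half-site in DNA.

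Because of that shared control, the promoters of the members were searched for the half-site. RefSeq windows of the 250 bases before a transcription start (build GRCm38.p6) were at hand for 6 of the 9 members, 8 windows in all because Slc27a1 had 3. The half-site AGGTCA was searched on both strands, and 3 of the 8 windows held it, 1 each in Cd36, Fabp1 and Slc27a2, against 14.02% of all 32851 such windows. The 3 windows are shown 5′ to 3′ on the strand of the gene, with half-sites in capitals. They are Cd36 at chr5:17835897-17836146 (minus strand), Fabp1 at chr6:71199629-71199878 (plus strand) and Slc27a2 at chr2:126552774-126553023 (plus strand).
Cd36: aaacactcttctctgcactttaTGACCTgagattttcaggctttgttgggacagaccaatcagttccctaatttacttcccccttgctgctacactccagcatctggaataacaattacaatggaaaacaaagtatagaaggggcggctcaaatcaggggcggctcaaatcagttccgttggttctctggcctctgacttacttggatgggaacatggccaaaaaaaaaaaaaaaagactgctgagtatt
Fabp1: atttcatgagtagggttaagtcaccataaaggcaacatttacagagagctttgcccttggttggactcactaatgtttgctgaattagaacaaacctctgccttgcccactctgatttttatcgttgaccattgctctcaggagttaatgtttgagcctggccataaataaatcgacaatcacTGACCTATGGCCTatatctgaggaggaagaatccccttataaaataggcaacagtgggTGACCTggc
Slc27a2: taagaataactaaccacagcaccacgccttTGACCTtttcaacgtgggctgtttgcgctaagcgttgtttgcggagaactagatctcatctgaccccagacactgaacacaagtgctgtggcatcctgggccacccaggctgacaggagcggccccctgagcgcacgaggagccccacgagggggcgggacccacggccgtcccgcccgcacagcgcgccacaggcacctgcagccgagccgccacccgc
In each of the 3 windows the half-site reads TGACCT on the strand shown. The full repeat AGGTCANAGGTCA was in none of the 6 members' windows and in 0.0335% of all windows. The longer run of capitals in Fabp1, TGACCTATGGCCT, begins 67 bases before the start and is a variant repeat that overlaps the first of the 2 half-sites there. This variant, searched as AGGCCANAGGTCA after the window had been read, was in 6 of all 32851 windows, and no other member's window held it. Fabp1 was also the one member with a TATAAA box, at 30 bases before the start, against 12.4% of all windows. A match is a description of the letters and not evidence of binding in these livers.

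The values are on a log2 scale and were centred gene by gene before deposit, so they show differences between livers and not how abundant a transcript is. For that reason levels cannot be ranked between genes, and the hepatocyte markers could not be used to check the tissue by brightness. Fabp2 read below 0 in every liver and Slc27a5 above 0 in every liver, so 0 is not the middle of these livers for every gene. The sign of a single value therefore carries no meaning of its own. The targeted gene Hmgb2 stood at -0.70, -0.38 and -0.48 in HMGB2-KO replicates 1, 2 and 3, against 0.48, 0.62 and 0.38 in WT replicates 1, 2 and 3. The arrays were not on a common level, since the median of WT replicate 2 was 0.26 against -0.05 to 0.01 in the other 5. As a result the median probe set lay 0.12 lower in HMGB2-KO (-0.12). Changes are therefore also given after each array was centred on its own median. Centring leaves the wider spread of WT replicate 2 in place, with an SD over probe sets of 0.53 against 0.32 to 0.36 in the other 5.

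None of the 9 genes differed between the genotypes at an adjusted p under 0.05 in limma, where 0 of all 22203 probe sets passed (0%). The targeted gene Hmgb2 did not pass either, at a change of -1.01 ± 0.15 (SE) and a limma adjusted p of 0.469. Failing this test is therefore not a sign that a gene was unchanged. At an unadjusted p under 0.05 the count was also 0 of 9, against 4.92% of all probe sets, and at a fold of at least 1.5 with that p it was 0 of 9, against 1.62%. On the deposited values 6 of 9 changes were above 0, against 22.6% of all probe sets, and on centred arrays 9 of 9, against 48.5%. On centred arrays without WT replicate 2 the count was 8 of 9, against 47.4%. With all arrays centred, WT replicate 2 was the lowest of the 6 livers for 5 of the 9 genes, against 21.6% of all probe sets. The genotypes overlapped for all 9 genes on the deposited values, where 0.779% of all probe sets lay higher in every HMGB2-KO liver than in any WT liver and 10.9% lay lower in every one. All 9 changes lay above that of the median probe set, as 50% of all probe sets do by definition, and the median of the 9 was 0.26 above it. With WT replicate 2 left out, that distance was 0.10, and 8 of 9 changes lay above the median probe set. Without HMGB2-KO replicate 1 it was 0.06, with 6 of 9 above.

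**Figure D1:**
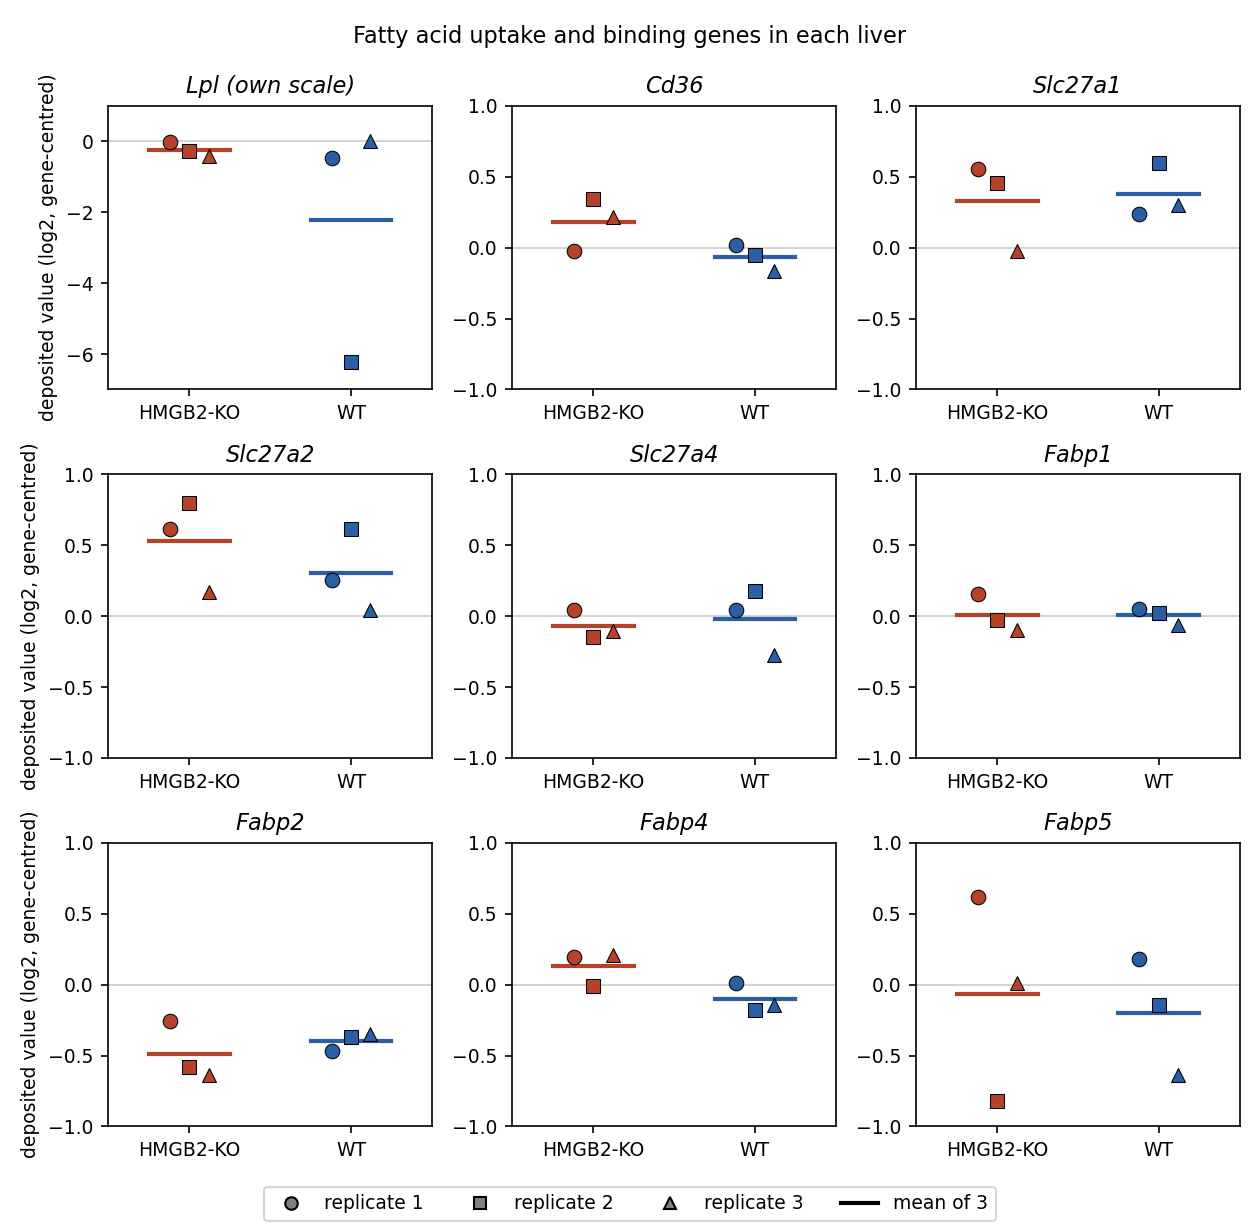
Deposited log2 values of the 9 genes in each liver, HMGB2-KO on the left and WT on the right of each panel, with bars for the mean of 3 livers. Symbols mark the replicate number, and Lpl has its own axis because WT replicate 2 read -6.22 while the other 5 livers lay between -0.46 and 0.01.

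Lpl (probe set TC0800000707.mm.2), which encodes lipoprotein lipase, had the widest spread of the set, and it came from a single reading. Its values were -0.01, -0.28 and -0.42 in HMGB2-KO replicates 1, 2 and 3, against -0.46, -6.22 and 0.01 in WT replicates 1, 2 and 3. The HMGB2-KO livers thus all lay inside the span of WT replicates 1 and 3, and only WT replicate 2 stood apart. The change was 1.99 ± 1.46 (SE, n = 3 per genotype), which would be a 3.97-fold higher level in HMGB2-KO, with a limma adjusted p of 0.852. Without WT replicate 2 the change was -0.01 ± 0.20 (SE), so neither the sign nor the size was held by the other 5 livers.

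The Lpl reading belonged to a larger group of isolated low readings on the same array. At 70 probe sets (0.315%) WT replicate 2 was under every other array by over 3 log2 units, against 17 in WT replicate 1 and 0 in each of the other 4 arrays. Lpl lay 5.76 below its nearest neighbour, and 12 of the 70 probe sets lay further out. The other 8 genes had no such reading. On the deposited values, WT replicate 2 was outside the range of the other 5 arrays by 0.04 below for Fabp4, 0.04 above for Slc27a1 and 0.14 above for Slc27a4, and inside it for Cd36, Fabp1, Fabp2, Fabp5 and Slc27a2. The 3 genes with the pattern most like that of Lpl over the 6 arrays were Atg7 (root mean square difference 0.24), Agpat1 (0.25) and Aprt (0.31). All 3 carried the same kind of reading, at -6.23, -5.86 and -6.59 in WT replicate 2 on centred arrays. That outcome was set by the measure, because the Lpl pattern over the 6 arrays is almost wholly that reading.

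**Figure D2:**
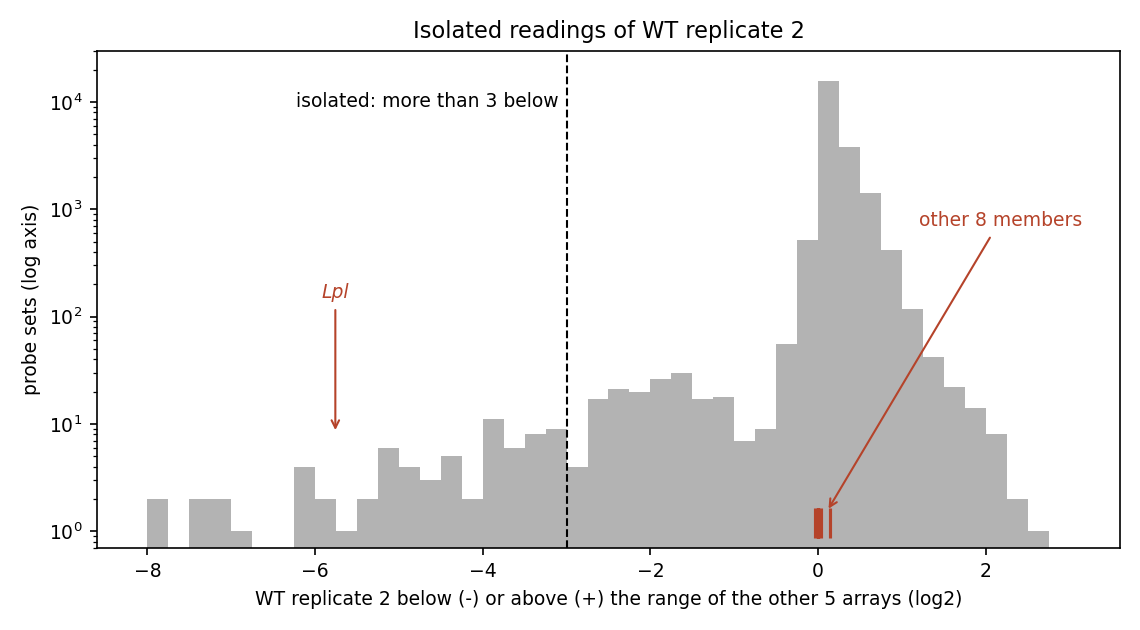
Distance of WT replicate 2 from the range of the other 5 arrays for all 22203 probe sets, in log2 units on the deposited values. The number of probe sets is on a log axis, and values inside that range are counted at 0. Lpl sits at -5.76, left of the dashed line at -3, and the other 8 genes lie within 0.14 of 0.

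Cd36 (TC0500001992.mm.2), the membrane receptor that takes up long-chain fatty acids and oxidised lipoproteins, was slightly higher on average in HMGB2-KO livers, within the spread of the test. It read -0.02, 0.35 and 0.22 in HMGB2-KO replicates 1, 2 and 3, against 0.02, -0.05 and -0.17 in WT replicates 1, 2 and 3. HMGB2-KO replicates 2 and 3 lay above every WT liver, and HMGB2-KO replicate 1 lay just under WT replicate 1. The change was 0.25 ± 0.15 (SE, n = 3 per genotype), or 1.19-fold, with a 95% interval from -0.10 to 0.60 and a limma adjusted p of 0.852. On centred arrays the genotypes no longer overlapped, with 0.02, 0.39 and 0.26 in HMGB2-KO against 0.01, -0.31 and -0.12 in WT, and the change was 0.37 ± 0.15 (SE). Its unadjusted limma p was then 0.0438 and its adjusted p 0.987, in a setting where 3.83% of all probe sets had an unadjusted p under 0.05. Without WT replicate 2 the centred change was 0.28 ± 0.16 (SE). The genes most like Cd36 over the 6 centred arrays were Trmt10c, Hsf1 and Patl1, at root mean square differences of 0.04, 0.04 and 0.05. They were picked as the nearest of all genes searched, so small differences were set by the measure. All 3 read lowest in WT replicate 2.

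The 3 transport proteins of the SLC27 family all had intervals that held 0. Slc27a2 (TC0200001898.mm.2), the main hepatocyte member, which also activates very long chain fatty acids, read 0.61, 0.80 and 0.17 in HMGB2-KO replicates 1, 2 and 3, against 0.26, 0.62 and 0.05 in WT replicates 1, 2 and 3. In both genotypes replicate 2 was highest and replicate 3 lowest, and the groups overlapped widely. The change was 0.22 ± 0.22 (SE, n = 3 per genotype), with a 95% interval from -0.29 to 0.73 and a limma adjusted p of 0.873. It was 0.09 with HMGB2-KO replicate 2 or WT replicate 3 left out, 0.40 with HMGB2-KO replicate 3 left out and 0.38 with WT replicate 2 left out.

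Slc27a1 (TC0800000796.mm.2), a transporter best known from muscle and fat, had 0.55, 0.45 and -0.03 in HMGB2-KO replicates 1, 2 and 3, against 0.24, 0.60 and 0.30 in WT replicates 1, 2 and 3. HMGB2-KO replicate 3 was the lowest of the 6 livers and WT replicate 2 the highest. The change was -0.05 ± 0.20 (SE), and its sign turned on centred arrays (0.07). Slc27a4 (TC0200000511.mm.2), which serves uptake in the intestine and skin, had 0.04, -0.15 and -0.11 in HMGB2-KO, against 0.04, 0.18 and -0.27 in WT. Both ends of its range were WT livers. Its change was -0.05 ± 0.16 (SE), or 0.06 on centred arrays.

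Among the binding proteins, Fabp4 (TC0300001639.mm.2), the form of adipocytes, macrophages and capillary endothelium, came closest to a separation of the genotypes. It read 0.20, -0.01 and 0.21 in HMGB2-KO replicates 1, 2 and 3, against 0.01, -0.18 and -0.14 in WT replicates 1, 2 and 3. HMGB2-KO replicates 1 and 3 lay above every WT liver, and HMGB2-KO replicate 2 lay 0.02 under WT replicate 1. The change was 0.24 ± 0.14 (SE, n = 3 per genotype), or 1.18-fold, with a 95% interval from -0.09 to 0.56 and a limma adjusted p of 0.852. With any 1 array left out it stayed between 0.20 and 0.31. On centred arrays the genotypes did not overlap, and the change was 0.35 ± 0.15 (SE). Its unadjusted limma p was 0.0514 and its adjusted p 0.987. Without WT replicate 2 the centred change was 0.23 ± 0.14 (SE). Fabp4 and Cd36 were thus 2 of 9 genes higher in every HMGB2-KO liver on centred arrays, against 4.22% of all probe sets on that side, and 0 of 9 were lower in every one, against 5.57%. The margin between the lowest HMGB2-KO liver and the highest WT liver was 0.046 for Fabp4 and 0.0098 for Cd36, and WT replicate 1 set it in both. The genes most like Fabp4 were Abhd16a, Kcnc1 and Tox3, at root mean square differences of 0.05, 0.06 and 0.06. As for Cd36, they were picked as the nearest, and each read lowest in WT replicate 2 on centred arrays.

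Fabp5 (TC0300000060.mm.2), the epidermal form, which macrophages and endothelium also make, varied more within each genotype than between them. It had 0.62, -0.82 and 0.01 in HMGB2-KO replicates 1, 2 and 3, against 0.18, -0.14 and -0.64 in WT replicates 1, 2 and 3. The highest and the lowest liver were both HMGB2-KO. Its range within HMGB2-KO was 1.44 and that within WT 0.82, against a change of 0.13 ± 0.37 (SE). That change was -0.21 without HMGB2-KO replicate 1 and 0.51 without HMGB2-KO replicate 2. Its SD over the 6 centred arrays exceeded that of 94.8% of all probe sets.

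Fabp1 (TC0600000821.mm.2), the liver form and one of the most abundant proteins of the hepatocyte cytosol, was nearly level across the livers. It read 0.15, -0.03 and -0.10 in HMGB2-KO replicates 1, 2 and 3, against 0.05, 0.03 and -0.06 in WT replicates 1, 2 and 3. Its whole range over the 6 livers, 0.25, was the smallest of the 9 genes on the deposited values. The change was 0.01 ± 0.14 (SE, n = 3 per genotype), with a 95% interval from -0.31 to 0.32. On centred arrays it was 0.12 ± 0.13 (SE), where WT replicate 2 alone stood low at -0.23.

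Fabp2 (TC0300001251.mm.2), the intestinal form, had -0.25, -0.58 and -0.64 in HMGB2-KO replicates 1, 2 and 3, against -0.47, -0.37 and -0.35 in WT replicates 1, 2 and 3. The 3 WT livers lay between HMGB2-KO replicate 1 and the other two. The change was -0.10 ± 0.15 (SE), or 0.02 on centred arrays, and without HMGB2-KO replicate 1 it was -0.22.

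The 95% intervals of Fabp1, Fabp2, Slc27a1 and Slc27a4, and that of Fabp4, stayed within a 1.5-fold change either way on the deposited values. The intervals of the other 4, Cd36, Slc27a2, Fabp5 and Lpl, reached past 1.5-fold, for Cd36 by a small amount (upper limit 0.60). On centred arrays the Fabp4 interval ran from -0.0028 to 0.71 and so reached past 1.5-fold as well. Those of Fabp1, Fabp2, Slc27a1 and Slc27a4 stayed within it there. Within HMGB2-KO, replicate 1 was the highest liver for 6 of the 9 genes and replicate 3 the lowest for 5. Within WT, replicate 3 was also the lowest liver for 5 of the 9. Slc27a2 and Fabp1 were the 2 genes lowest in replicate 3 in both genotypes. These counts were made on deposited values, from arrays with unlike medians. Their shares over all probe sets were not counted, so they describe the 9 genes alone. No label ties livers of the same number to each other, and whether the number played a part in these differences was not tested.

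**Figure D3:**
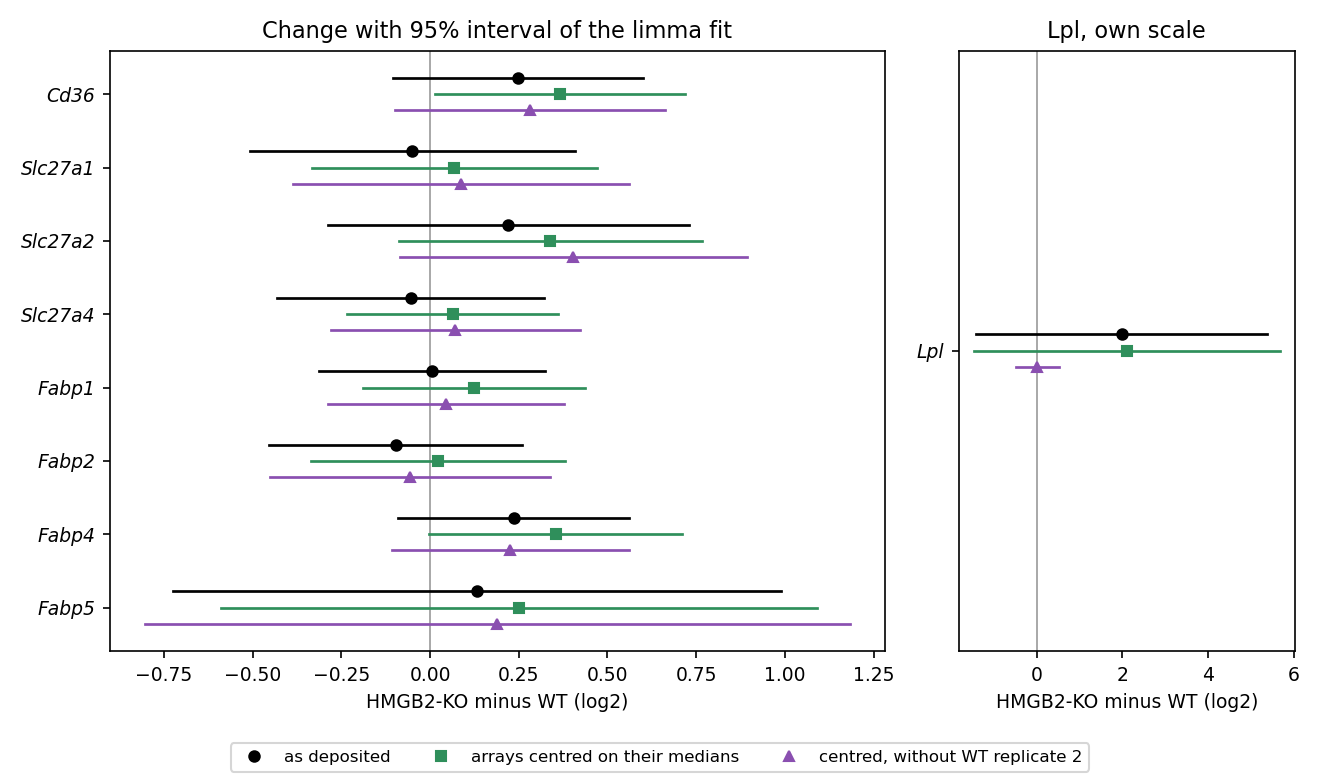
Log2 change of each gene, HMGB2-KO minus WT, with its 95% interval from limma, on the deposited values, on arrays centred on their medians, and on centred arrays without WT replicate 2. One interval of the 27 leaves 0 out, that of Cd36 on centred arrays, and the Lpl estimate moves from 1.99 to 0.02 once WT replicate 2 is left out.

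In bulk liver, fewer cells of a type and less RNA per cell cannot be told apart, which matters most for Fabp4, Fabp5, Lpl and Cd36, genes also made by cells other than hepatocytes. The 8 endothelial markers had mean centred values of 0.57 to 0.74 in HMGB2-KO livers and 0.50 to 0.52 in WT livers, groups that did not overlap. On the deposited values 2 of the 8 had changes above 0, against 22.6% of all probe sets. They were Pecam1, an adhesion molecule of endothelium (0.43 ± 0.17, SE), and Lyve1, a sinusoidal hyaluronan receptor (0.51 ± 0.32). The other 6 lay between -0.22 for Stab1 and -0.03 for Stab2. Gpihbp1, which anchors lipoprotein lipase to capillaries, was among them (-0.10 ± 0.20, or 0.02 on centred arrays). Of the 8, 6 lay above the median probe set, and the median of the 8 was 0.04 relative to it. The mean of the 8 macrophage and Kupffer cell markers ran from 0.31 to 0.53 in HMGB2-KO livers and from 0.21 to 0.34 in WT livers, groups that overlapped. All 8 changes lay above the median probe set, with a median of 0.15 relative to it. For the 7 adipocyte markers other than Fabp4 and Lpl, the mean ran from -0.10 to 0.34 in HMGB2-KO livers and from -0.24 to 0.21 in WT livers. Of these 7, Adipoq, Lep, Plin1 and Retn had changes of -0.25 to -0.13, and Cfd, Cidec and Pck1 changes of 0.21 to 0.36. Cfd was also higher in every HMGB2-KO liver than in any WT liver on centred arrays. The means of the other 8 marker lists, for hepatocytes, stellate cells, cholangiocytes, muscle, enterocytes, acinar cells, erythroid cells and lymphocytes, overlapped between the genotypes. Their median changes relative to the median probe set ran from -0.10 for cholangiocytes to 0.12 for lymphocytes. Of the 8 hepatocyte markers 7 lay above the median probe set, at a median of 0.11 relative to it. Which markers are near background cannot be read from gene-centred values, and the part of these cells in the Cd36 and Fabp4 values was not tested.

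The 12 other uptake and binding genes lay evenly around the median probe set. None of them passed the limma test, 6 of 12 lay above the median probe set, and their median was 0.00 relative to it. Slc27a5, the liver-specific transporter that also activates bile acids, was nearly level, with 0.62, 0.59 and 0.64 in HMGB2-KO livers against 0.69, 0.69 and 0.66 in WT livers. Its HMGB2-KO values all lay under the WT values, as did those of 10.9% of all probe sets, and its change of -0.07 ± 0.12 (SE) was 0.06 above the median probe set. The members with the smallest p were Fabp3, the heart form (-0.49 ± 0.23, SE), Fabp12 (-0.46 ± 0.26), Fabp6, the ileal bile acid binding protein (-0.33 ± 0.26), and Slc27a3 (-0.16 ± 0.15). Their limma adjusted p-values ran from 0.852 to 0.864. For Fabp6 the change rested on WT replicate 2, which read 0.93 against 0.01 and -0.04 in WT replicates 1 and 3, and without it on centred arrays it was 0.01. For Fabp3, WT replicate 2 read 0.84, and its change was -0.27 without that array, as was that of Fabp12. The Slc27a3 change was -0.25 with HMGB2-KO replicate 2 left out and -0.08 with HMGB2-KO replicate 3 left out. Fabp5, Fabp9, Fabp4 and Fabp12 lie in this order on chromosome 3 in RefSeq GRCm38.p6, with Pmp2 between Fabp5 and Fabp9. Their changes of 0.13, 0.03, 0.24 and -0.46 had both signs.

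The partners of lipoprotein lipase and the related lipases and receptors, 15 of 16 genes measured, had 7 above the median probe set, a median of -0.01 relative to it and 0 past the limma test. Lmf1, which folds the lipase in the endoplasmic reticulum, stood at 0.22 ± 0.16 (SE), and its partner in that step, Sel1l, at -0.40 ± 0.26 (SE). Lmf1 was at 0.11 without WT replicate 3, and Sel1l at -0.16 without WT replicate 1 and -0.24 without HMGB2-KO replicate 1. Angptl8, a feeding-induced inhibitor of the lipase, stood at -0.93 ± 0.70 (SE), with -1.10, -0.92 and 0.83 in HMGB2-KO livers against 1.63, -0.83 and 0.80 in WT livers. Both genotypes thus held high and low livers, and with 1 array left out its change ran from -0.38 (WT replicate 1) and -0.58 (HMGB2-KO replicate 1) to -1.54 (HMGB2-KO replicate 3) and -1.61 (WT replicate 2).

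Genes of acyl-CoA formation and handling, the step that traps an imported fatty acid, had 5 of 12 measured members above the median probe set and a median of -0.04 relative to it. None of them passed the limma test. Acsl1, the main liver acyl-CoA synthetase, had a change of 0.23 ± 0.18 (SE), which was 0.06 when HMGB2-KO replicate 2 was left out. Acsl6 (-0.28 ± 0.21), Acot4 (-0.35 ± 0.23) and Acot3 (-0.39 ± 0.40) pointed the other way, and Acot3 turned to 0.14 without WT replicate 1, the one liver in which it read 0.25. Without WT replicate 3, Acsl6 was at -0.51 and Acot4 at -0.62, and without WT replicate 2 they were at -0.14 and -0.22.

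Of the transcriptional regulators, 6 of 13 measured genes lay above the median probe set, their median was -0.01 relative to it and 0 passed the limma test. Pparg, which drives Cd36 and Fabp4 in fat cells and in fatty liver, stood at 0.41 ± 0.25 (SE), with a limma adjusted p of 0.852, or 0.23 without WT replicate 2 and 0.62 without WT replicate 3. It read 0.30, 0.49 and -0.13 in HMGB2-KO replicates 1, 2 and 3, against -0.26, -0.54 and 0.23 in WT replicates 1, 2 and 3. HMGB2-KO replicates 1 and 2 lay above every WT liver, and HMGB2-KO replicate 3 below WT replicate 3. The xenobiotic receptor gene Nr1i2 (-0.47 ± 0.24, SE), the aryl hydrocarbon receptor gene Ahr (-0.31 ± 0.22) and the liver X receptor gene Nr1h3 (-0.17 ± 0.15) lay on the other side. All 3 factors are known to raise Cd36 in liver. The Nr1i2 change was -0.21 without WT replicate 2, which read 0.91. That of Ahr was -0.52 with WT replicate 3 left out and -0.16 with WT replicate 2 left out, and that of Nr1h3 was -0.07 without HMGB2-KO replicate 1. Ppara, the fatty acid sensor of hepatocytes, stood at -0.15 ± 0.45 (SE).

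**Figure D4:**
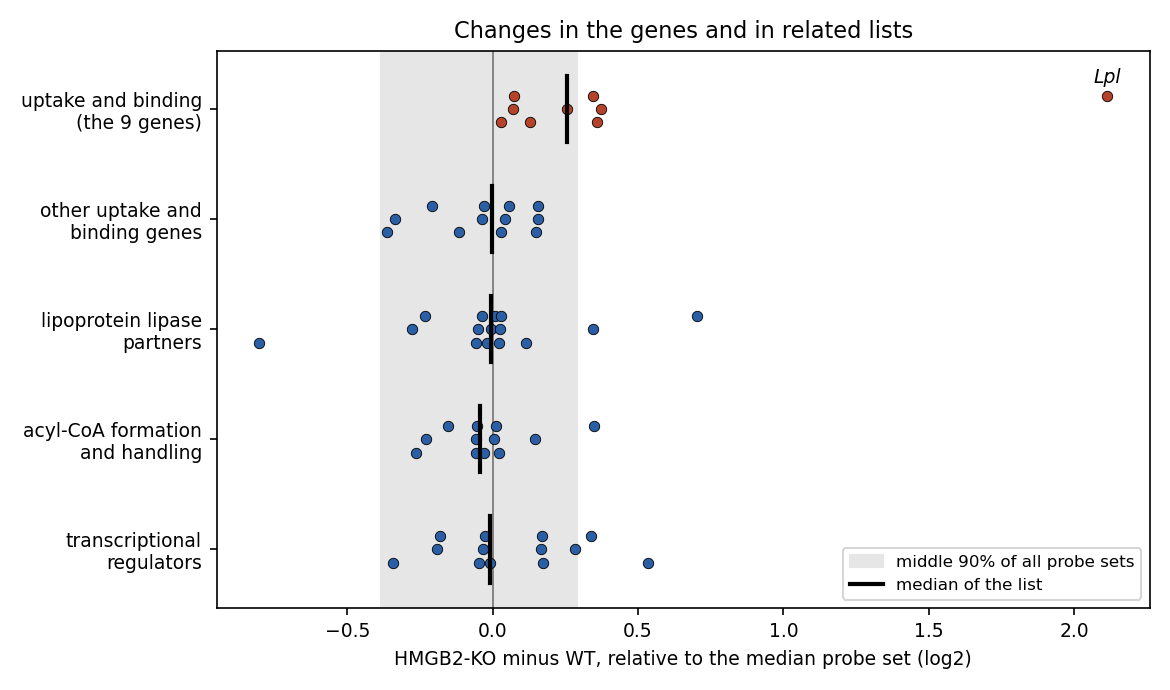
Change of each measured gene, HMGB2-KO minus WT relative to the median probe set (log2), for the 9 genes and 4 related lists, with black bars for list medians and a grey band for the middle 90% of all probe sets (-0.38 to 0.29). Cd36, Fabp4, Slc27a2 and Lpl lie right of the band, as do Angptl4, Pparg, Acsl1, Lmf1 and Ppargc1a of the related lists. Angptl8 lies left of it. The median of the 9 genes (0.26) lies inside the band, and the medians of the 4 related lists lie between -0.04 and 0.00.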

How the data were processed

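Total RNA of liver was measured on Clariom S mouse arrays with biotin-labelled cDNA, labelled in duplicate per the labels' protocols, and the table holds 1 column per liver. The authors deposited log2 values centred gene by gene. The log base was taken from their range. Their software, normalization and build were not given in the sources used here. A second deposited table held the same values. The titles gave the genotype of each liver. The 22203 probe sets with a symbol were tested with limma 3.58.1 in R 4.3.3 (lmFit, eBayes, genotype as the only term), with Benjamini-Hochberg adjustment over all of them at 0.05. The test was also run on simulated data with normal noise of each gene's spread and the array medians of these data. Isolated readings and the wider spread of WT replicate 2 were not simulated. The outcome is not given here and does not vouch for the test on these arrays. Reported were all 9 members, in each related list the 4 measured genes with the smallest p, and the 3 genes nearest to Cd36, Fabp4 and Lpl by root mean square difference, without predicted genes, sensory receptors or small RNAs. One gene named by this rule is not reported here. Genes given beyond these were chosen after their values were seen. Members and lists were chosen with earlier results of these data known. Alternatives were other normalizations, other variance models, array weights, averaged probe sets, the title number as a block, masking of isolated readings and leaving out each array. The number of arrays limits the precision.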

Additional observations from a re-analysis of the deposited data

How the results depend on the processing

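The count of 0 of the 9 genes past an adjusted p of 0.05 in limma held under all 16 alternatives. Over all probe sets the count was 0 as well, except 6 with array weights; these weights favoured WT replicate 1. The median of the 9 relative to the median probe set, 0.26, was 0.099 on centred arrays without WT replicate 2 and 0.13 with isolated readings masked, and ran from 0.057 to 0.34 with 1 array left out. Signs turned for Fabp2 (0.022 and 0.038), Slc27a1 (0.068 and 0.10) and Slc27a4 (0.064 and 0.064) on centred arrays and under quantile normalization. With array weights they turned for Fabp1 (-0.025), Fabp5 (-0.19) and Slc27a1 (0.077). On centred arrays without WT replicate 2 they turned for Slc27a1 (0.088), Slc27a4 (0.071) and Fabp6 (0.012), and with masking for Lpl (-0.0078). With 1 array left out, changes ran from -0.065 to 0.059 for Fabp1, -0.21 to 0.51 for Fabp5, -0.16 to 0.13 for Slc27a1, -0.18 to 0.043 for Slc27a4, -0.0078 to 3.11 for Lpl and -0.68 to 0.14 for Acot3. The causes were not tested. With the number in the titles as a replicate block, 0 of the 9 and 0 of all probe sets passed and the median of the 9 stayed at 0.26. Same-numbered livers deviated together at correlations of 0.02, 0.13 and 0.27 across genes, against -0.22 to 0.11 for livers of unlike number. These values do not settle whether the livers were paired. No label ties livers of the same number, so the numbers were not taken as pairs. The intensity trend, robust eBayes, averaged probe sets and the second table changed no sign. At a distance of 1 log2 unit, as at 3, Lpl was the member with an isolated reading in WT replicate 2.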

Other observations

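Several genes around fatty acid uptake varied more between livers than between genotypes, with the livers numbered 3 low in both. They were chosen after their values were seen. Angptl4, an inhibitor of lipoprotein lipase that fasting induces, read 1.74, 2.24 and -0.80 in HMGB2-KO replicates 1, 2 and 3, against 1.44, 1.82 and -1.81 in WT replicates 1, 2 and 3. Its range within HMGB2-KO and within WT exceeded 3 log2 units, against a change of 0.58 ± 1.08 (SE). Ppara followed the same order, with 1.42, 1.52 and 0.14 in HMGB2-KO livers against 1.33, 1.76 and 0.43 in WT livers. Mfsd2a, a transporter of lysophospholipids, was high in replicate 2 of both genotypes, with -0.12, 1.98 and -0.34 in HMGB2-KO livers against 0.12, 2.45 and -0.33 in WT livers. Among the 9 genes, Slc27a2 (highest in replicate 2) and Fabp1 (highest in replicate 1) kept their order of livers in both genotypes. Both were lowest in replicate 3, and Lpl did not keep its order. How often other probe sets kept such an order was not counted. The labels give no feeding state or time of day for any liver.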
